A study of Drosophila melanogaster with 2 samples.

Results

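The vacuolar proton ATPase (V-ATPase) genes of Drosophila melanogaster were taken as the protein-coding genes of the Ensembl BDGP6 annotation whose symbol starts with Vha. There were 33 of them among 13968 protein-coding genes on the chromosome arms, and they encode 14 subunits. The data were chromatin immunoprecipitation sequencing (ChIP-seq) peak lists from whole embryos aged 0 to 24 h of a transgenic strain that expresses the transcription factor Ribbon (rib) fused to enhanced GFP. The design had 1 group, rib-eGFP embryos, with 2 biological replicates, and no other genotype, age or treatment. The immunoprecipitation used an anti-GFP antibody by the description in the labels, although their antibody field names rib. Whole embryos mix all tissues and a full day of development, so a peak says nothing of the cells in which it arose. Data of a control experiment were not used here, and the lists hold no read counts, so no background from control samples could be set beside the values and the sequencing depth is unknown.

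The V-ATPase is a rotary pump that moves protons into lysosomes, endosomes and secretory vesicles and, in some epithelia such as the insect Malpighian tubule, across the plasma membrane. Its V1 sector, made of subunits A to H, sits in the cytoplasm and splits ATP. Its V0 sector, made of subunits a, c, c'', d and e, lies in the membrane and lets protons through. In flies many subunits are encoded by several paralogues, some of which are expressed mainly in the testis. Ribbon belongs to the BTB family of DNA-binding factors and is known for its role in the elongation of salivary gland and tracheal tubes.

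The promoters at which the results turn are shown first, as 150 bases each of the dm6 sequence in RefSeq, written 5′ to 3′ along the strand of the gene. Positions count the first transcribed base as 0. Vha68-1 (chr2L:13004169-13004318, minus strand, positions -211 to -62) and Vha68-2 (chr2L:12974179-12974328, plus strand, positions -143 to 6) are the paralogues of the catalytic subunit A that had peaks. VhaSFD (chr2L:16727797-16727946, minus strand, positions -120 to 29) encodes subunit H. Of the bound members it had the most similar signal values in the lists of the replicates, whose scales are not stated. Vha100-2 (chr3R:18399140-18399289, minus strand, positions -120 to 29) had the highest signal of the family. Vha16-5 (chr2L:10737225-10737374, minus strand, positions -331 to -182) had its peak at the start of its divergent neighbour. Vha55 (chr3R:12627800-12627949, minus strand, positions -120 to 29) had a strong region that is absent from the thresholded list, and it was added after its values were seen. The summit lies inside the printed stretch for all of them except VhaSFD, whose summit is in the transcribed part. Capitals mark matches on either strand to 6 short motifs, which are spelled out with their counts further on.
Vha68-1: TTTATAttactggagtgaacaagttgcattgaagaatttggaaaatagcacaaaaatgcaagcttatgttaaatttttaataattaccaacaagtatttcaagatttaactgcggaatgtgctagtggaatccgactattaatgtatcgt
Vha68-2: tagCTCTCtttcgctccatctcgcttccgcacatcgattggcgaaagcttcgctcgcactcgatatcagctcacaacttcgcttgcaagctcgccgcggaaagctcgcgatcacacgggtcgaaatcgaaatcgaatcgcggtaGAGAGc
Vha55: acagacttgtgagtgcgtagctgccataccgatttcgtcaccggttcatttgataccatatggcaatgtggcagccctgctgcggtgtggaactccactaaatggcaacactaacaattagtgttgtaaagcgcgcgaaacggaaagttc
VhaSFD: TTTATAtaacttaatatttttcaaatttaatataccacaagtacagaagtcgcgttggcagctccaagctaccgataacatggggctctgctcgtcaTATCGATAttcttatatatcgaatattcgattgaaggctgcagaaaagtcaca
Vha100-2: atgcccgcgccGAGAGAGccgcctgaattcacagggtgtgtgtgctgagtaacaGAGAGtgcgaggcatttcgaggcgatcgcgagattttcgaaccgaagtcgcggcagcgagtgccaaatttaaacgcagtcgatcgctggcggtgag
Vha16-5: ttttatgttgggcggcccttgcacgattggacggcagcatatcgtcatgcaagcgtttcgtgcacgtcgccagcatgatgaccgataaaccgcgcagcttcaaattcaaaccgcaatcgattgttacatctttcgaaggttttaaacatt

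A gene was counted as bound when the summit of a peak was at most 500 bp from one of its annotated transcription start sites (TSSs). In the list of 4606 thresholded peaks made from both replicates, 9 of the 33 Vha genes were bound, or 27.3% (exact Clopper-Pearson 95% interval 13.3 to 45.5%), beside 18.2% of all protein-coding genes. The interval covers counting of genes only and contains the share of all genes. It treats the genes as independent, although some paralogues lie next to each other, and it was not used as a test. The bound genes were Vha68-1, Vha68-2, Vha44, Vha36-1 and VhaSFD of V1 and Vha100-2, Vha16-1, Vha16-5 and VhaM9.7-b of V0. By sector, 5 of 13 V1 genes, 4 of 18 V0 genes and 0 of 2 genes of the accessory subunit Ac45 were bound. At least 1 gene was bound for 7 of the 14 subunits, namely A, C, D, H, a, c and e. For subunits B, E, F, G, c'', d and Ac45 no gene was bound in this list.

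The replicates gave fewer bound genes when each was read from its own thresholded list. There were 8 Vha genes (24.2%) in the list of replicate 1, beside 13.0% of all genes, and 5 Vha genes (15.2%) in the list of replicate 2, beside 10.7%. Those 5, Vha68-1, Vha44, VhaSFD, Vha100-2 and Vha16-1, were bound in both lists, as were 8.00% of all genes. Vha36-1 and Vha16-5 were in the list of replicate 1 but not in that of replicate 2. Vha68-2 and VhaM9.7-b were in neither, so their calls rest on the joint list. Vha13, subunit G, was bound in the list of replicate 1 but not in the joint list.

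**Figure D1:**
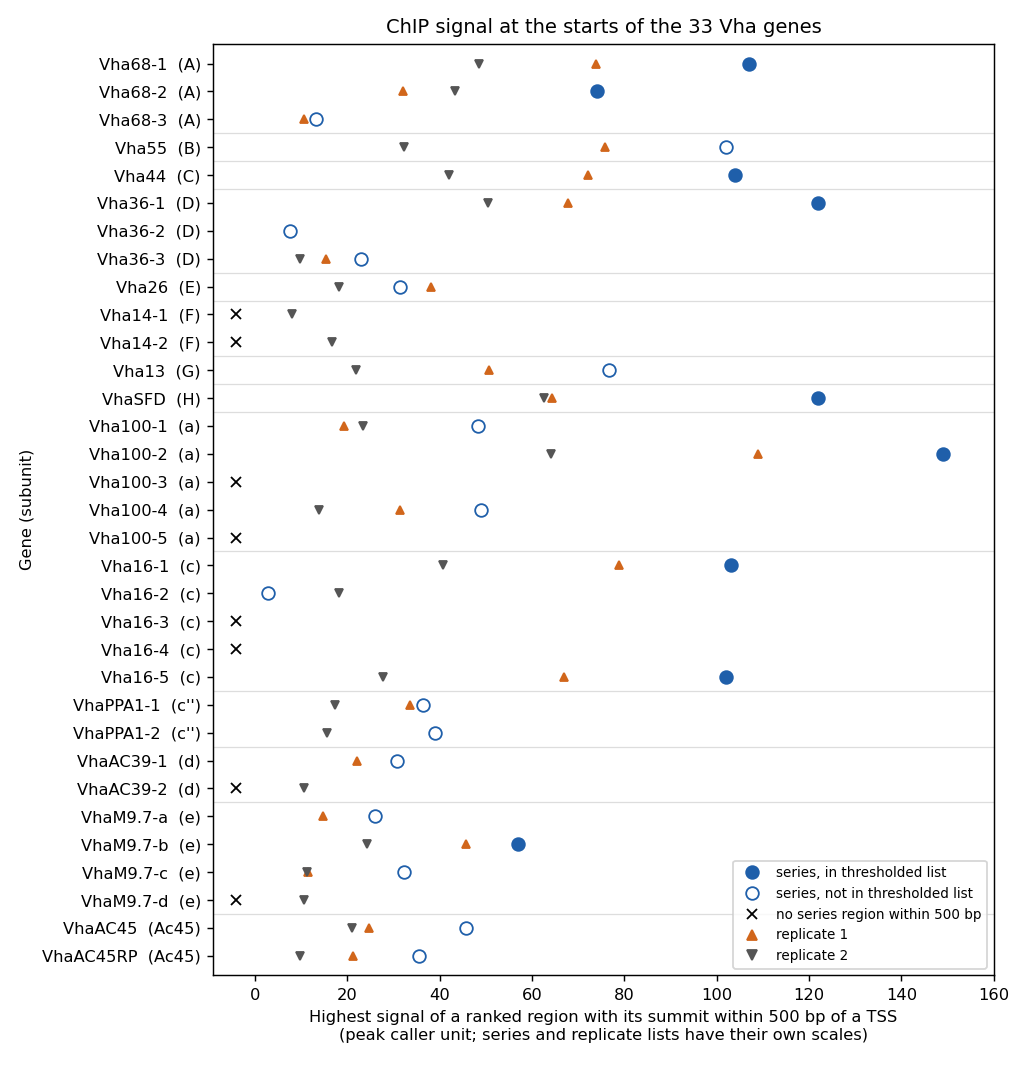
Highest signal (x axis, peak caller unit) of any ranked region with its summit within 500 bp of a TSS, for each of the 33 Vha genes (y axis, with the subunit in parentheses), in the joint list (circles, filled where the region is also in the thresholded list) and in replicates 1 and 2 (triangles). Crosses left of 0 mark genes with no such region in the joint list. The filled circles lie between 57 and 149, and the open circle of Vha55 lies among them at 102.

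Signal is the peak caller's measure of peak strength, and its scale is not stated, so values are compared within a list. The authors' score of a region is its irreproducible discovery rate (IDR) on a scale up to 1000, with 830 standing for an IDR of 0.00997 as a fraction. Over the 9 bound Vha genes the median signal was 104 (range 57 to 149), and over all 2547 bound genes it was 106 (quartiles 83.3 to 155). The medians were close, and each of the 9 Vha values but those of Vha68-2 (74.1) and VhaM9.7-b (57) lay within the quartiles of all bound genes. Vha100-2 stood at percentile 94.8 of all protein-coding genes by the highest ranked signal near a start, Vha68-1 at 90.6 and VhaM9.7-b at 72.8.

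In the V1 sector, subunit A carries the catalytic sites, and 2 of its 3 genes were bound. Vha68-1 had a signal of 107 in the joint list with the summit 137 bp upstream of its TSS. Its ranked regions had signals of 73.8 in replicate 1 and 48.5 in replicate 2, each with a score of 1000. Each of these scores belongs to the list of a single replicate and does not measure agreement between the replicates. Vha68-1 was bound in the thresholded lists of both. Vha68-2, which has 5 annotated TSSs, had a joint signal of 74.1 with the summit 68 bp upstream and a score of 885. Its signals were 32 in replicate 1 (score 447) and 43.3 in replicate 2 (score 770). Vha68-2 was the bound member that was higher in replicate 2 than in replicate 1. Vha68-3 starts 178 bp beyond the end of Vha68-2 on the same strand and had a region of signal 13.3 at 384 bp downstream of its start, far from the threshold with a score of 46.

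Subunit C, which takes part in the reversible assembly of V1 on V0, is encoded by Vha44 alone. Vha44, on arm 2R, had a joint signal of 104 with the summit 4 bp inside the gene, and 72.1 in replicate 1 and 42 in replicate 2 (both scores 1000). The TSS of Hmgs, which encodes a synthase of the mevalonate pathway, is 123 bp away on the opposite strand, and the summit is 127 bp upstream of it. A further summit of signal 54.1 lay at -1852 bp from Vha44 and 187 bp from a TSS of Hmgs. VhaSFD, the gene of the regulatory subunit H, had a joint signal of 122 with the summit 56 bp downstream of its start and no other protein-coding TSS within 500 bp. Its signals were 64.4 in replicate 1 and 62.6 in replicate 2, both with a score of 1000. The log2 ratio of replicate 1 over replicate 2 was 0.04 here, beside a median of 0.39 over bound genes with a region in both.

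Subunit D belongs to the central rotor stalk, and 1 of its 3 genes was bound. Vha36-1 had a joint signal of 122 with the summit 37 bp upstream, 67.7 in replicate 1 (score 1000) and 50.4 in replicate 2 (score 580). The gene starts 72 bp from CG8187 on the opposite strand, whose TSS is 35 bp from the summit, so the peak sits between the 2 starts. Vha36-3 had a region of joint signal 22.9 at 340 bp, with 15.4 at 428 bp in replicate 1 and 9.81 at -445 bp in replicate 2. Vha36-2 had a region of joint signal 7.48 and none in either replicate within 500 bp. Both had a joint score of 46, the lowest in the ranked list.

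Among the other V1 genes, Vha13, which encodes subunit G of the outer stalk, lay just under the threshold. Its ranked region had a joint signal of 76.7 at 48 bp downstream of the start and a score of 820, that is an IDR of 1.06%. In replicate 1 the signal was 50.7 (score 878) and in replicate 2 it was 21.8 (score 186). Just inside the threshold were VhaM9.7-b with a score of 842 and Vha68-2 with 885. Vha26, the single gene of stalk subunit E, had a joint signal of 31.3 at -232 bp and a score of 46. Its highest regions in the replicates lay elsewhere, with 38.1 at 409 bp in replicate 1 and 18.3 at 11 bp in replicate 2. Vha14-1 and Vha14-2, the genes of the rotor subunit F, had no joint region within 500 bp. In replicate 2 they had weak regions of 8.08 and 16.6.

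Vha55 is the single gene of subunit B, the non-catalytic partner of subunit A in the V1 ring. It lies on chr3R:12623762-12627829 (minus strand, dm6). Its ranked region in the joint list had a signal of 102 with the summit 30 bp upstream of the outermost TSS. The score was 996 and the IDR 0.398%, which is past the lowest score of the thresholded peaks, 830, and the rank was 2035 of 108141 regions. In replicate 1 the region had a signal of 75.9 and a score of 882, also past 830, and in replicate 2 it had 32.2 and 610. The region is nevertheless not among the thresholded peaks analysed here. By signal, Vha55 would stand beside Vha16-1 (103) and Vha16-5 (102).

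The surroundings of Vha55 share this. No thresholded summit of the joint list lies between 12456768 and 12717901 on chr3R, a stretch of 261133 bp with 34 protein-coding genes. The ranked list has 213 regions in that stretch, 3 of them with a score of 830 or more. Genome-wide, 172 of 4778 ranked regions past the score were not among the 4606 thresholded peaks, and 106 of the 172 were on 3R. Per the text deposited with the samples, the thresholded lists derive from a further file that the ranked lists do not derive from. Whether this bears on the absent regions was not tested. With every ranked region past the score counted, 10 of the 33 Vha genes (30.3%) were bound, beside 18.7% of all genes, and 8 of the 14 subunits had a bound gene. The divergent neighbour Snx3, a sorting nexin, starts on the opposite strand with the summit 172 bp upstream of it.

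**Figure D2:**
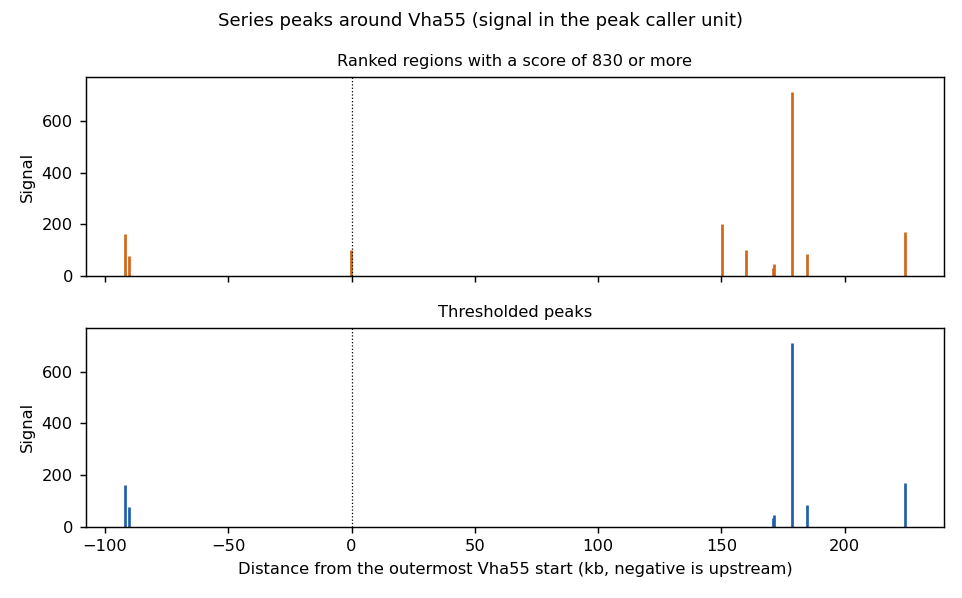
Joint-list regions around Vha55, with signal (y axis, peak caller unit) against the distance from the outermost Vha55 start (x axis, kb, negative is upstream, dotted line at the start). The upper panel holds ranked regions with a score of 830 or more and the lower panel the thresholded peaks. The region of signal 102 at Vha55 and those near 150 and 160 kb appear in the upper panel and not in the lower one.

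In the V0 sector, subunit a forms the half-channels for protons and directs the pump to membranes, and 1 of its 5 genes was bound. Vha100-2 had peaks at both of its start regions. At the outer start the joint signal was 149 with the summit 15 bp downstream, and the overlapping ranked regions had 109 in replicate 1 and 48.2 in replicate 2, both with a score of 1000. At the inner start the joint signal was 128 with the summit at -344 bp, 55.7 in replicate 1 (score 237) and 64.1 in replicate 2 (score 1000). The first peak was thus the stronger in replicate 1 and the second the stronger in replicate 2. The second summit lies 277 bp inside Vti1b, a SNARE gene on the opposite strand whose TSS is 67 bp from the inner start of Vha100-2. Vha100-4, which starts 517 bp beyond the end of Vha100-2 on the same strand, had a joint region of 48.9 (score 544), with 31.3 in replicate 1 and 13.9 in replicate 2. Vha100-1, which acts in neurons, had a joint region of 48.3 (score 120), with 19.3 in replicate 1 and 23.3 in replicate 2. Vha100-3 and Vha100-5 had no region within 500 bp of their starts in any of the ranked lists.

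Subunit c forms the membrane ring that turns with each proton, and 2 of its 5 genes were bound. Vha16-1 had a joint signal of 103 with the summit 29 bp upstream of its inner start and no other gene's TSS within 500 bp. Its signals were 78.9 in replicate 1 (score 1000) and 40.7 in replicate 2 (score 845). This peak was 101 bp wide, where the others of the family were 380 bp. Vha16-1 also held a summit of 97.2 in an intron, 3882 bp downstream of its nearest start, and one of 78.8 in an untranslated region, 5640 bp downstream. Vha16-5 had a joint signal of 102 at 295 bp upstream of its start, with 67 in replicate 1 (score 1000) and 27.7 in replicate 2 (score 76). That summit is 7 bp from the TSS of CG12299 on the opposite strand, which is 302 bp from that of Vha16-5, so the nearer gene is CG12299. Vha16-2 had a joint region of 2.76 at -401 bp and, elsewhere, one of 18.3 at 248 bp in replicate 2. Vha16-3 and Vha16-4 had none in any ranked list.

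Of the 4 genes of the small membrane subunit e, VhaM9.7-b was bound, with summits of 57 at 460 bp and 28.4 at 261 bp upstream. Both had a score of 842 and lie nearer to COX8, which encodes a subunit of cytochrome c oxidase and starts 415 bp away on the opposite strand. In the replicates the overlapping region had 45.7 in replicate 1 (score 701) and 24.3 in replicate 2 (score 241). This was the weakest signal of a bound member in replicate 2. VhaM9.7-a had a joint region of 26 and VhaM9.7-c one of 32.3, while VhaM9.7-d had none. For subunit c'', the joint regions were 39 at VhaPPA1-2 and 36.4 at VhaPPA1-1, with scores of 96 and 92. For subunit d, which links the rotor to the c ring, the region at VhaAC39-1 had a joint signal of 30.8, and VhaAC39-2 had none. The Ac45 genes had joint regions of 45.8 at VhaAC45 and 35.5 at VhaAC45RP.

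Of the 24 genes not bound in the thresholded joint list, Vha55 and Vha13 among them, 16 had a region in the joint ranked list within 500 bp. The other 8 had none. The median ranked signal of those 16, Vha55 included, was 33.9, beside 36.5 over the 8048 of 11421 unbound protein-coding genes that had a region. Over the 24 genes, the nearest thresholded summit lay at a median of 5407 bp (range 633 to 114068 bp, the farthest being that of Vha14-2). It was within 2500 bp for 8 genes and beyond 10000 bp for 10, Vha55 (90072 bp) among them. These distances were not set beside those of all genes. Summits near unbound members were mostly closer to another gene. The summit of 123 that is 795 bp from the start of Vha14-1 is 333 bp from a TSS of Gmppa. The summit of 83.8 in the untranslated region of Vha13 is 414 bp from a TSS of subdued, which encodes a chloride channel of the anoctamin family. At Vha100-1 the summits of 73.1 and 5.83, at -917 and -633 bp, lie nearest to dgt6, a gene of the augmin complex. With a window of 1000 bp, Vha14-1 and Vha100-1 were added, giving 11 of 33 Vha genes, beside 21.6% of all genes.

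Paralogues of a subunit were set against each other within each list, with the gene of highest joint signal over each of the others. Of the 9 subunits with several genes, 5 had at least 1 bound gene, 3 of them exactly 1 and 2 of them a pair. Among 19 such pairs, 7 had a value for both genes in both replicates, and in 5 of these the ranges over the replicates did not overlap. Since the stronger gene was chosen by its joint signal, made from these same replicates, the ratios and the count of ranges without overlap are a description. The ranges also pool values of lists whose scales are not stated. For Vha68-1 over Vha68-2 the log2 ratio was 0.52 in the joint list, 1.21 in replicate 1 and 0.16 in replicate 2, so the replicates differ on its size. For Vha36-1 over Vha36-3 it was 2.42 in the joint list, 2.14 in replicate 1 and 2.36 in replicate 2. For Vha100-2 over Vha100-1 it was 1.62 in the joint list, 2.50 in replicate 1 and 1.46 in replicate 2. In both pairs the stronger gene was the same in each replicate. The value of Vha100-2 in replicate 2 came from its inner start, and the values of Vha36-3 came from different positions in the lists. For Vha100-2 over Vha100-4 the log2 ratio was 1.60 in the joint list, 1.80 in replicate 1 and 2.20 in replicate 2. For VhaM9.7-b over VhaM9.7-c it was 0.82, 1.99 and 1.10. The highest region of VhaM9.7-c lay at 196 bp in the joint list, 476 bp in replicate 1 and 197 bp in replicate 2. Vha16-1 and Vha16-5 were close, with log2 ratios of 0.01 in the joint list, 0.24 in replicate 1 and 0.56 in replicate 2, and their replicate ranges overlapped. The ranges of VhaAC45 and VhaAC45RP overlapped as well.

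The bound Vha genes had their strongest summit upstream of the nearest start in 6 of 9 cases (66.7%), beside 69.2% of all bound genes, and within 200 bp of it in 7 of 9 (77.8%), beside 76.1%. The median offset was -37 bp (range -460 to 56 bp) for Vha genes and -71 bp for all bound genes. The Vha median was -295 bp when distances were taken from the canonical transcript of each gene, with no value for all bound genes beside it. It was -81 bp over the 5 Vha genes bound in the list of replicate 2 and -15 bp over the 8 bound in that of replicate 1. For 5 of the 9 (55.6%) a TSS of another gene lay within 500 bp of the strongest summit, as for 1259 of the 2547 bound genes (49.4%). Each of those neighbours, mTor, Hmgs, CG8187, CG12299 and COX8, is transcribed in the opposite direction. The kinase gene mTor starts 373 bp from Vha68-1, and the summit is at -236 bp from it. The other gene was the nearer one for 3 Vha genes, Vha36-1, Vha16-5 and VhaM9.7-b. With each summit given to the gene of its nearest TSS, 6 Vha genes remained bound, beside 14.6% of all genes.

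**Figure D3:**
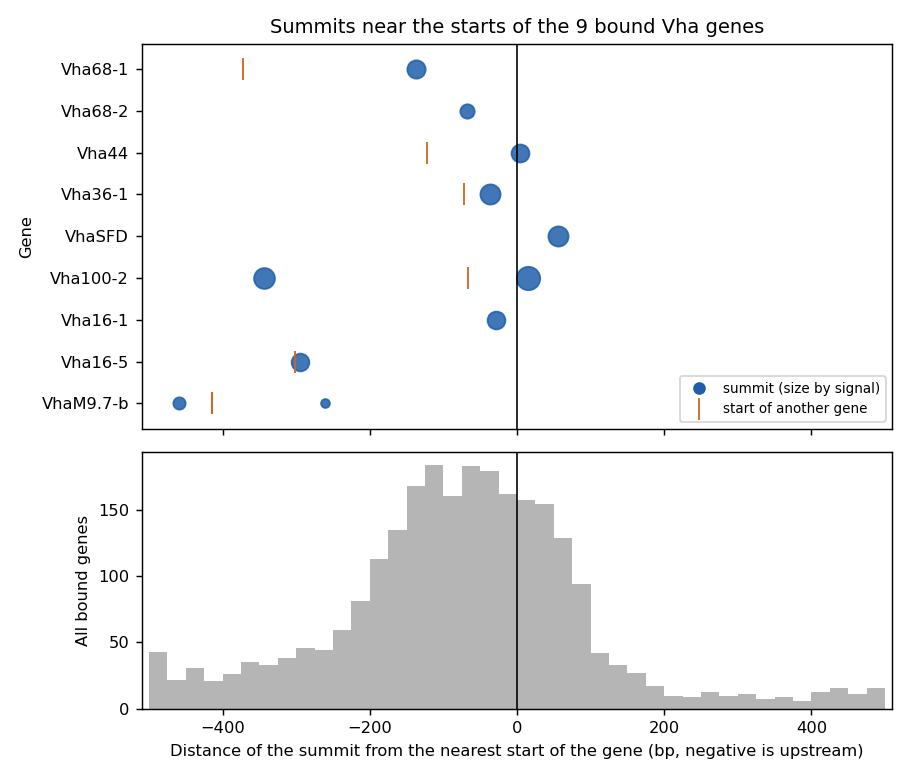
Distance of thresholded summits from the nearest start of the gene (x axis, bp, negative is upstream). The upper panel gives the 9 bound Vha genes, with point size scaled to signal and vertical marks at starts of other protein-coding genes, and the lower panel the number of all bound genes in bins of that distance. The summit at -344 bp and the mark in the row of Vha100-2 refer to its inner start. Most Vha summits lie close to 0, and those of Vha16-5 at -295 bp and VhaM9.7-b at -460 bp lie beside the start of a neighbour.

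Genes with several annotated starts offer more windows in which a summit can fall. Among Vha genes with 2 or more TSSs, 4 of 8 (50%) were bound, beside 32.5% of all such genes. Among those with 1 TSS, 5 of 25 (20%) were bound, beside 13.1%. The bound genes with several starts were Vha68-2, Vha44, Vha100-2 and Vha16-1.

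Replicate 1 had higher signals than replicate 2 at most bound promoters, those of the Vha genes included. The log2 ratio of replicate 1 over replicate 2 had a median of 0.77 over the 9 bound Vha genes and of 0.39 over 2534 bound genes with a region in both. Among the Vha genes it spanned -0.44 at Vha68-2 to 1.27 at Vha16-5. It was 0.04 at VhaSFD, 0.43 at Vha36-1, 0.60 at Vha68-1, 0.77 at Vha100-2 (1.18 for the peak at its outer start alone), 0.78 at Vha44, 0.91 at VhaM9.7-b and 0.95 at Vha16-1. It was 1.24 at Vha55 and 1.22 at Vha13, both outside the thresholded joint list. A pair of replicates of 1 group allows no test of such a difference, and its cause was not tested.

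**Figure D4:**
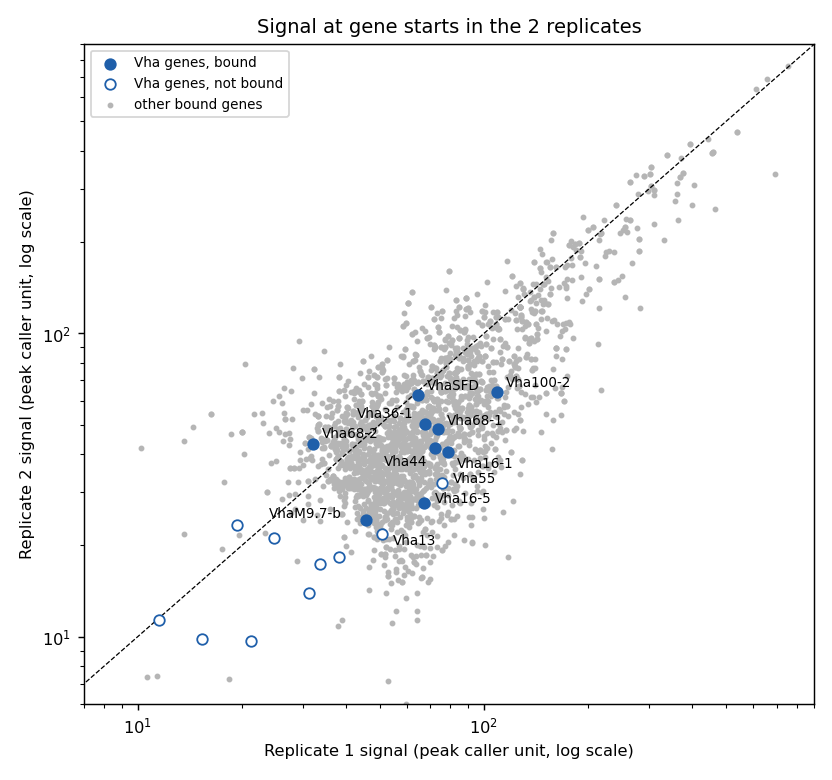
Highest ranked signal within 500 bp of a TSS in replicate 1 (x axis) and replicate 2 (y axis), both in the peak caller unit on log scales, for bound Vha genes (filled circles), Vha genes that were not bound (open circles) and other bound genes (grey points). The dashed line marks equal signals. Of the 9 filled circles, that of Vha68-2 lies above the line and that of VhaSFD almost on it.

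The 6 motifs marked in the printed promoters were looked for within 50 bp of the strongest summit of each bound Vha gene, and of 2395 promoter summits in all. They are the DREF core element TATCGATA, the symmetric E-box CACGTG, the GAGA element GAGAG, the box-like word TATAAA, the core promoter word GGTCACAC and another E-box, CAGCTG. Both strands were read, and copies of GAGAG can overlap each other. Of the 9 Vha genes, 1 had GAGAG (Vha16-1), beside 18.4% of promoter summits, and 1 had CAGCTG (VhaSFD), beside 6.10%. None had TATCGATA (3.38% of promoter summits), CACGTG (1.67%), TATAAA (11.9%) or the word GGTCACAC (1.80%). Within 100 bp, 3 Vha genes had GAGAG (Vha100-2, Vha16-1 and Vha68-2), beside 33.6%, and 3 had CAGCTG (Vha36-1, VhaSFD and Vha44), beside 13.1%. TATCGATA was then found at VhaSFD, beside 5.55%, CACGTG at Vha44, beside 2.88%, TATAAA at Vha68-1, beside 22.4%, and GGTCACAC at Vha68-2, beside 4.09%. In these windows around the summit no motif was found at more than 3 of the 9. The longer stretch from 250 bases before to 50 after the outermost start was also read, for all protein-coding genes. There TATAAA was at 6 of the 9 bound and 11 of the 24 other Vha genes, beside 45.9% of all genes. GAGAG was at 3 bound and 6 other Vha genes, beside 29.8%, and CAGCTG at 3 bound and 5 others, beside 17.7%. TATCGATA was at 1 bound gene, VhaSFD, and 1 other, Vha55, beside 9.36%. The counts were 1 bound and 2 other Vha genes for CACGTG, beside 4.23%, and 1 bound and 3 others for the word GGTCACAC, beside 7.70%.

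Other genes of acid compartments and other large complexes were counted by the same rule, under which 18.2% of all protein-coding genes were bound. Of 12 genes for the assembly and regulation of the pump, 3 (25%) were bound. These were Lamtor3, of the Ragulator complex that holds TOR signalling at the lysosome, with a signal of 415 at 89 bp upstream, mtd with 152 and Mitf, the transcription factor known to control V-ATPase genes in flies, with 57.2. Mitf was bound in the thresholded list of neither replicate, while Lamtor3 and mtd were bound in both. The signal at Lamtor3 was 200 in replicate 1 and 220 in replicate 2 and exceeded that of every Vha gene. Of 17 genes for lysosomal enzymes and membrane proteins, 4 (23.5%) were bound, the strongest being the transporter gene spin with 143, Hexo2 with 139 and Cln7 with 87.6. Of 14 ion transporters of epithelia, 5 (35.7%) were bound, led by the chloride channel gene ClC-c with 243, the sodium-proton exchanger gene Nhe3 with 119 and the sodium pump gene Atpalpha with 79.7.

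The rotary ATP synthase of mitochondria and the proteasome were the complexes set beside the pump, again with 18.2% of all genes as the background. Of 15 genes of the ATP synthase, 3 (20%) were bound, ATPsynF with 209, ATPsynCF6 with 77.5 and ATPsyngamma with 77.3. Of 48 proteasome genes, 9 (18.8%) were bound, with signals up to 115 at Rpn3 and Rpn6 and 104 at Prosbeta5. In both replicate lists at once, where 8.00% of all genes were bound, the counts were 5 of 33 Vha genes, 2 of 12 pump assembly genes, 2 of 17 lysosome genes, 4 of 14 epithelial ion transporter genes, 1 of 15 ATP synthase genes and 0 of 48 proteasome genes. These lists are small, and no difference between them was tested.

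**Figure D5:**
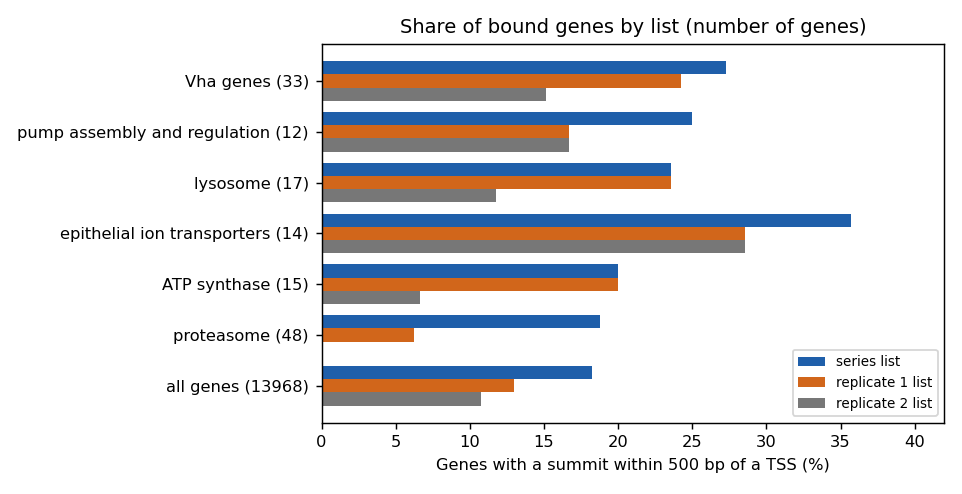
Share of genes with a thresholded summit within 500 bp of a TSS (x axis, percent) for the Vha genes, 5 other gene lists and all protein-coding genes (y axis, number of genes in parentheses), in the joint list, replicate 1 and replicate 2. The Vha genes stand at 27.3, 24.2 and 15.2%, and all genes at 18.2, 13.0 and 10.7%.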

How the data were processed

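Whole embryos of 1 group with 2 biological replicates were profiled by ChIP-seq, and the deposited peak lists were used as they stand, on dm6 per the file headers. Which aligner and peak caller made them is not given in the sources used here. Signal values that the authors deposited are in the unit of their peak caller, with unstated scaling. The score the authors deposited is the IDR rescaled to whole numbers, and the −log10 of the global IDR deposited in the ranked lists was used to read it. Per the text deposited with the samples, the thresholded lists derive from a further file that the ranked lists do not derive from.

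Positions were made 1-based. Genes came from Ensembl release 115 (BDGP 6.54) and sequence from the RefSeq assembly of the same build, where 33 of 33 Vha coding starts read as start codons. A summit within 500 bp of any TSS called a gene bound. Each gene got its highest signal in each list, so its values in different lists can come from different regions. Regions overlapped peaks by at least 1 bp. Python 3.11.15, pandas 2.3.3 and scipy 1.17.1 were used, with steps tested on simulated lists. With 1 group there were 0 tests between samples. The members and lists were chosen with earlier results of these data known. All members are named, as are up to 3 genes by signal of each other list. Bound members have joint signal, offset and both replicate signals, and the other members some or all of these. Promoters were printed for bound members off arm 2R by highest signal, with at most 30 untranslated bases. Vha55, which is not bound in the thresholded list, was printed as well, and VhaM9.7-b, the bound member of lowest signal, was not. The symbol Ostm1 matched no gene. Alternatives were other lists, windows of 200 and 1000 bp, nearest TSSs, canonical transcripts, the stronger 50% of peaks and ranked regions past a score of 830.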

Additional observations from a re-analysis of the deposited data

How the results depend on the processing

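Of 40 alternatives, 26 left a count within 1.5 times or a value within the spread between replicates, 14 moved it and 0 turned it round. Bound Vha genes numbered 9 in the joint list and 5 to 8 with a replicate left out, the low value being that of the list of replicate 2. Without a replicate, lysosome genes numbered 2 to 4, ATP synthase genes 1 to 3 and proteasome genes 0 to 3, the low values again from the list of replicate 2. The share of all genes bound was 18.2% in the joint list of 4606 peaks. It was 13.0% in the list of replicate 1 (3082 peaks) and 10.7% in that of replicate 2 (2181 peaks). Subunits with both bound and unbound genes numbered 3 to 4 without a replicate, against 5. The median offset was -295 bp by the canonical transcript, and -81 to -15 bp with a replicate left out, over the genes bound in each list. Leaving out a replicate was added after the data were seen for the subunits and the offset. The median replicate ratio of bound Vha genes relative to all bound genes was 0.38 on the log2 scale and 0.39 when regions were matched by overlap, counted as moved since the ratio has no replicate spread of its own. With 100 bp around the summit in place of 50 bp, GAGAG and CAGCTG were each at 3 Vha genes against 1, and each of the other 4 motifs at 1 against 0, in a window that is larger by construction. The conservative list, from which Vha68-2 and VhaM9.7-b are absent, held 7 bound Vha genes (21.2%), beside 16.5% of all genes. No paired analysis was possible because there is 1 group. The lists hold no counts, so depth and counting error of a peak are unknown, and small lists leave wide intervals.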
